A study of Homo sapiens with 4 samples.

Results

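The genes described here encode ATP-dependent chromatin remodellers and their subunits, read through the open chromatin peaks that lie nearest to them in Kasumi-1 cells, an acute myeloid leukaemia line with the t(8;21) translocation. Members were all peaks of the first of 2 deposited peak tables whose nearest gene carries a SMARC, ARID1, ARID2, ACTL6, BRD7, BRD9, PBRM1, DPF, SS18, BCL7, CHD or INO80 symbol. This gave 77 of 20556 peaks at 36 gene symbols, of which 45 peaks at 34 symbols were promoter peaks (within 3 kb of a start site, as annotated) and 32 lay elsewhere. The assay was ATAC-seq, where an enzyme inserts adapters wherever DNA is accessible, so that read density reports openness. The 4 libraries were 2 of cells given a non-targeting guide (sgNT, labelled WT) and 2 of cells with the SETD8 gene knocked out by CRISPR/Cas9 (sgSETD8). All 4 came from the same cultured line, and the labels give no time after editing, no clone and no statement that the paired libraries are separate cultures. SETD8, now KMT5A, places a single methyl group on a lysine in the tail of histone H4. Of 8 promoters chosen as marks of myeloid progenitors and t(8;21) leukaemia, 6 carried a peak, among them KIT, SPI1, RUNX1 and POU4F1, while CD33 and MPO had none. Of 12 promoters of other cell types, 3 did (CD3D, EPCAM and COL1A1).

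Remodellers use ATP to slide, evict or exchange nucleosomes. The BAF complexes (mammalian SWI/SNF) carry SMARCA4 or SMARCA2 as the motor on a shared core and open enhancers and promoters. ARID1A or ARID1B defines the canonical form, ARID2, PBRM1 and BRD7 the PBAF form, and BRD9 the non-canonical form. SMARCA5 is an ISWI motor that spaces nucleosomes, the CHD proteins are motors with chromodomains, and INO80 moves nucleosomes and acts on those that hold the variant histone H2A.Z.

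The first table does not name its libraries. The second holds 13577 peaks and compares sgSETD8 replicate 2 with sgNT replicate 2, 1 library each. Reads in its peaks came to 2091322 for the knockout and 5345251 for the control. Nearly all peaks were lower in the knockout as deposited, with median log2 fold changes of -0.87 (first table) and -1.23 (second table). Values below are therefore given as the relative change, which is the log2 fold change minus that median of the same table. A relative change of 0 is a peak that moved with the bulk of peaks, and in the second table it corresponds to 0.426 knockout reads per normalised control read. Of the 77 member peaks, 49 overlapped a peak of the second table. For these, an exact binomial (Clopper-Pearson) 95% interval on the reads of both libraries is given where it bears on the value. It covers counting error only, since the second table has no replicates, and it compares 2 libraries rather than 2 conditions.

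The 250 bases before the start site are printed for the 2 genes with the lowest and the 2 with the highest promoter change averaged over both tables, because these are the ends of the range described below. They come from RefSeq on GRCh38.p14, and capitals mark the motifs searched on both strands, namely CCGGAAG (ETS), CCAAT (NFY), GGGCGG (SP family) and AAGATGG (YY1 core), none of which overlap here. The windows are chr2:74454773-74455022 (plus strand), chr9:2015097-2015346 (plus), chr16:50368989-50369238 (minus) and chr12:122021634-122021883 (plus), in the order shown, all 5′ to 3′.
INO80B-WBP1: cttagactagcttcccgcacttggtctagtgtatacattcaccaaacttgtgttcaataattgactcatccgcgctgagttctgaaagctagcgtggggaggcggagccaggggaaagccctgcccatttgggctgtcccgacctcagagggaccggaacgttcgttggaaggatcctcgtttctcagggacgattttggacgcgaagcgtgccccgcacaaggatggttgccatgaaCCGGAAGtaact
SMARCA2: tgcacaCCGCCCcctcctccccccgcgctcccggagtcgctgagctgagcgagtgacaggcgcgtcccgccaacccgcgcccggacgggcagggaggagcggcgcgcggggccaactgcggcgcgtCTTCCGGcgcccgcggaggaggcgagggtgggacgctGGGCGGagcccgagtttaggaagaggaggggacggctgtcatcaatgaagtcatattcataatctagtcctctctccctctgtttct
BRD7: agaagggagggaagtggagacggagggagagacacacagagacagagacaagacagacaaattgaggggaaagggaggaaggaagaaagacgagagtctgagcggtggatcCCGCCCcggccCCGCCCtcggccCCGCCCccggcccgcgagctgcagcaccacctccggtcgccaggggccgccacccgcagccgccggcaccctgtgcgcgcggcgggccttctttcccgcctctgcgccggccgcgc
BCL7A: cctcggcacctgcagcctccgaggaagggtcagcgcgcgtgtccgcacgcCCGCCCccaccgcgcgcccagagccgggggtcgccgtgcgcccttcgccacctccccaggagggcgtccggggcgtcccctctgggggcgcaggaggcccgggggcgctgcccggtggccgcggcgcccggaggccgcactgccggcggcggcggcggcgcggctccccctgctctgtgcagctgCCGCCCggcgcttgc
The BRD7 window held 3 SP-type matches and the BCL7A window 2, with none of the other motifs. The SMARCA2 window held 2 SP-type matches and 1 ETS match, and the INO80B-WBP1 window 1 ETS match alone. Over the windows of this length that lie at the strongest promoter peak of any gene, 73.0% of 6465 hold the SP motif, 18.5% the ETS motif, 37.5% the NFY motif and 3.50% the YY1 core. The G+C share was 54.4% at INO80B-WBP1, 68.8% at SMARCA2, 70.8% at BRD7 and 82.4% at BCL7A. A window could be matched for 21 of the 34 member promoters, which is 61.8% and under the 80% asked for, so no comparison of base content or motifs over the members was made.

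Remodeller promoters as a group moved with other promoters. Each gene is represented by its promoter peak with the highest mean level in the first table. Over 34 such peaks the median relative change was -0.03 (range -0.80 to 1.09), against -0.06 over the strongest promoters of all 10187 genes. A second-table partner was found for 30 of them, with a median of 0.04 (range -0.77 to 0.80), against -0.03 for 8269 genes. Of the 34, 18 (52.9%) lay below the all-peak median of the first table, where 55.8% of all genes did. Of the 30, 13 (43.3%) lay below that of the second, where 53.2% did. Of the 30 promoters with both values, 10 were below the median in both tables, 10 above in both and 10 split. Over all genes the shares were 33.7% below in both and 21% above in both. As deposited, 12 members (35.3%) were lower by at least 1 by the first table, against 43.3% of genes, and 25 (83.3%) by the second, against 83.4%. Which libraries stand behind the first table is not stated, so the 2 tables cannot be taken as independent.

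No member peak passed the authors' test. The adjusted p in the authors' deposited tables was at least 0.731 in the first and 0.578 in the second for every member, and 0% of all peaks of either table passed 0.05. At an unadjusted p under 0.05 the authors' first deposited table held 1 member peak, where 1.6% of all its peaks did, and the second held 0, where 0.14% did. A limma fit on the 2 relative changes of each of 11117 overlapping peaks called 0 of the 49 member peaks at an adjusted p of 0.05, with 0.316 the smallest, and 1 of all peaks (0.009%). At an unadjusted p under 0.05 it held 6 member peaks, against 10.6% of all peaks. Fitted on fold changes as deposited, without removing the shared shift, it called 46 of the 49, where 96.7% of all joined peaks were called. The genes below are therefore described by the size of their values, not by a call. No label says that the libraries are separate cultures, so none of these p-values can be read as measuring spread between cultures. The authors' second test had 1 library per group and thus no spread between replicates to draw on. For the first, the libraries are unnamed, so what spread its p-values measure cannot be told. The limma p-values rest on the spread between the values of a peak in the 2 tables.

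**Figure D1:**
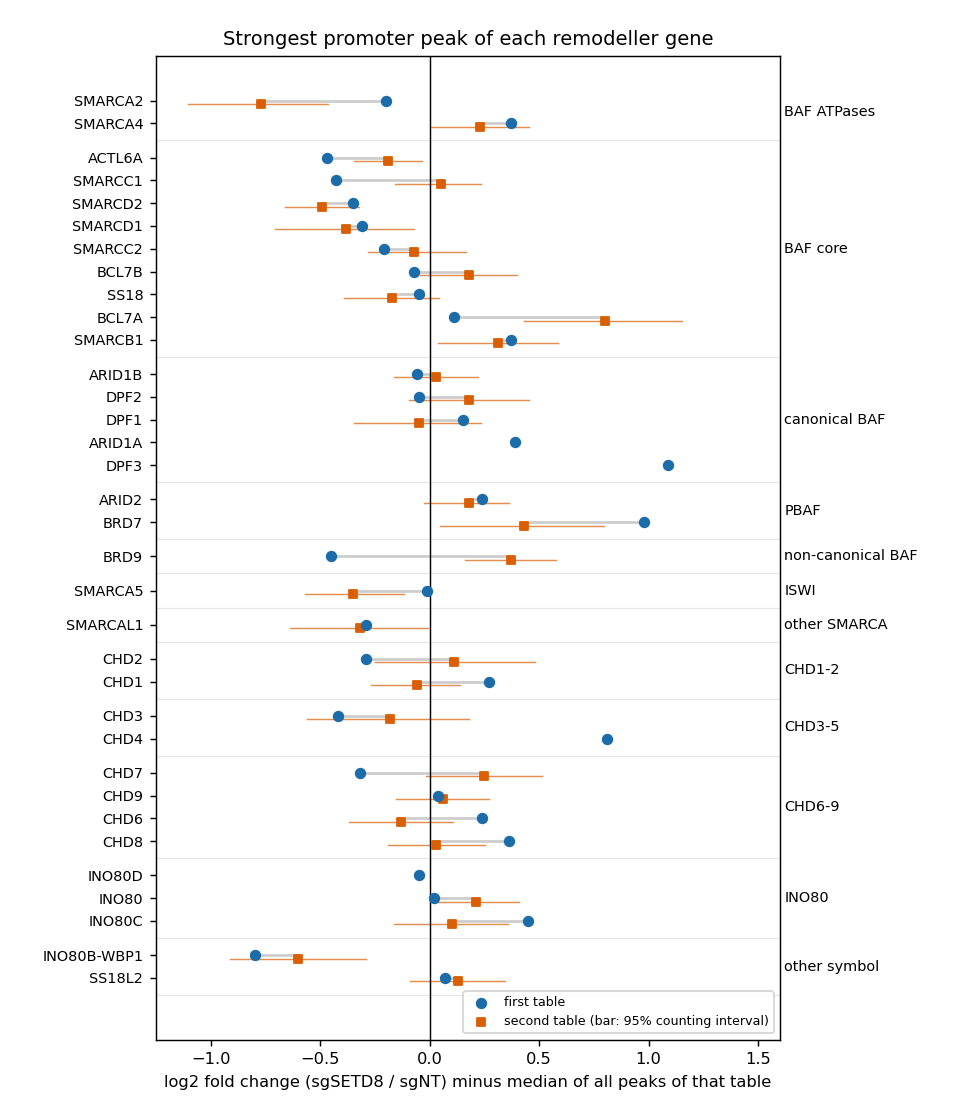
Relative change (log2 fold change minus its table's median over all peaks) of the strongest promoter peak of 34 remodeller genes, by complex, with blue circles for the first table, orange squares for the second, orange bars for the 95% counting interval and a grey line joining the values of a gene. INO80B-WBP1 and SMARCA2 lie lowest and BRD7 and BCL7A highest among the genes with both values.

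The 2 alternative motors of BAF complexes fell on opposite sides of the median in both tables. The SMARCA4 promoter (chromosome 19, 10960540 to 10961208, hg38) had 237 knockout and 474 normalised control reads, with relative changes of 0.37 (first table) and 0.23 (second table). Its counting interval ended at 0.45 and began just above 0. A further promoter peak within SMARCA4, at 11035800 to 11036336, stood at 0.75 and 0.36, and an intronic one at 10979979 to 10980486 at 0.88 and 0.09. All 3 SMARCA4 peaks were thus above the median in each table. The SMARCA2 promoter (chromosome 9, 2014785 to 2015488) had 102 knockout and 410 normalised control reads, with relative changes of -0.20 and -0.77 and a counting interval of -1.10 to -0.47. The intervals of the 2 genes' promoters do not overlap in the second table. In the first table the other peaks of the same 5 Mb stood at 0.22 around SMARCA4 and at -0.14 around SMARCA2, and in the second table at 0.05 and -0.12. Subtracting these regional medians left 0.16 and 0.19 for SMARCA4 and -0.06 and -0.65 for SMARCA2. Much of the first-table difference between the motors was therefore shared with neighbouring peaks, and most of the second-table difference was not.

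Of the genes grouped here as BAF core, a list that is not limited to subunits shared by every BAF form, 9 had a promoter peak. Of these, 5 were below the median in both tables and 2 above in both, where 33.7% and 21% of all genes were. SMARCD2, one of the alternative SMARCD core subunits and a gene needed for neutrophil maturation, had the lowest mean of both tables in this group. Its promoter (chromosome 17, 63842486 to 63843454) had 372 knockout and 1226 normalised control reads and relative changes of -0.35 and -0.49. Neighbouring peaks of the same 5 Mb had medians of -0.15 and -0.42, which leaves -0.20 and -0.07. SMARCD1, its paralogue, stood at -0.31 and -0.38 (chromosome 12, 50085022 to 50085583), from 108 knockout and 331 normalised control reads. There the regional medians were near 0, at 0.10 and -0.02. ACTL6A, the actin-related subunit of BAF and INO80 complexes, was at -0.47 and -0.19 with 449 and 1201 reads. SMARCC2, a scaffold of the core, and SS18, the subunit fused in synovial sarcoma, lay closer to the median at -0.21 and -0.07 and at -0.05 and -0.17.

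At the other end of the genes grouped as BAF core, SMARCB1, the subunit lost in rhabdoid tumours, had a promoter (chromosome 22, 23786711 to 23787663) at 0.37 and 0.31, from 167 knockout and 315 normalised control reads. BCL7A, which binds the ATPase arm of the complex and is altered in B cell lymphoma, had 110 knockout and 149 normalised control reads at its promoter (chromosome 12, 122021640 to 122022327). Its relative change was 0.80 in the second table (interval 0.43 to 1.15), the highest of any member promoter there, but 0.11 in the first. BCL7B was at -0.07 and 0.18, and SMARCC1, the paralogue of SMARCC2, at -0.43 and 0.05, so these 2 changed side between tables.

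Subunits that define the separate BAF forms differed among themselves. The PBAF genes BRD7 and ARID2 were above the median in both tables. BRD7, a bromodomain protein, had 91.8 knockout and 161 normalised control reads at its promoter (chromosome 16, 50368810 to 50369329), with relative changes of 0.98 and 0.43 and a counting interval of 0.05 to 0.80. This peak was weak in the first table, with a mean level of 47.2 normalised reads, and weak peaks there were less lowered. With that trend by level removed its first-table value was 0.64. ARID2, the DNA-binding subunit of PBAF, was at 0.24 and 0.18 with 315 and 657 reads. PBRM1, the polybromo subunit, had no promoter peak among the members and 1 intronic peak in the first table, at -0.23. BRD9, of non-canonical BAF, split at its strongest promoter peak with -0.45 and 0.37, although its region on chromosome 5 was also at 0.38 in the second table, which leaves -0.01 there. A neighbouring BRD9 peak at 891068 to 891586 read -0.45 and -0.07.

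Among the canonical BAF genes, the strongest ARID1B promoter peak (chromosome 6, 157021085 to 157022294) lay at the median, with -0.06 and 0.03 from 313 knockout and 719 normalised control reads. DPF2, a reader of acylated histones, had -0.05 and 0.18, and DPF1, its relative of neurons, 0.15 and -0.05 at its stronger promoter peak and 0.51 and 0.21 at the other. A second ARID1B promoter peak, without a partner, was at 0.20. DPF3 had only a weak first-table promoter peak of 33.4 normalised reads, at 1.09, with no partner in the second table. With the trend by level removed it was at 0.32.

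At ARID1A the promoter peaks and the other peaks lay on opposite sides of the median, a pattern singled out after its values were seen. ARID1A is the DNA-binding subunit of canonical BAF and often mutated in cancer. Its 3 promoter peaks had relative changes of 0.39, 0.15 and 0.76 in the first table. The middle one (chromosome 1, 26695461 to 26695934) was also found in the second table, with 162 knockout and 296 normalised control reads and 0.36. Its 2 intronic peaks were below the median in both tables. The one at 26723259 to 26723865 had 60.1 knockout and 236 normalised control reads, with -0.60 and -0.75, and the one at 26744007 to 26744582 had 82.1 and 276, with -0.16 and -0.53. A distal peak upstream, at 26677505 to 26677890, stood at -0.30 in the first table. In the second table the counting interval of this middle promoter peak, 0.08 to 0.63, did not overlap those of the introns, -1.18 to -0.33 and -0.89 to -0.17. The strongest ARID1A promoter peak had no second-table value. How often promoter and intronic intervals of a gene lie apart over all genes was not counted. The difference between promoter and introns over both tables was not tested. The regional median was 0.14 by the first table, and relative to it the promoter peaks stood at 0.25, 0.01 and 0.62 and the introns at -0.74 and -0.30. In the second table, relative to the region, the joined promoter peak was at 0.33 and the introns at -0.78 and -0.56.

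**Figure D2:**
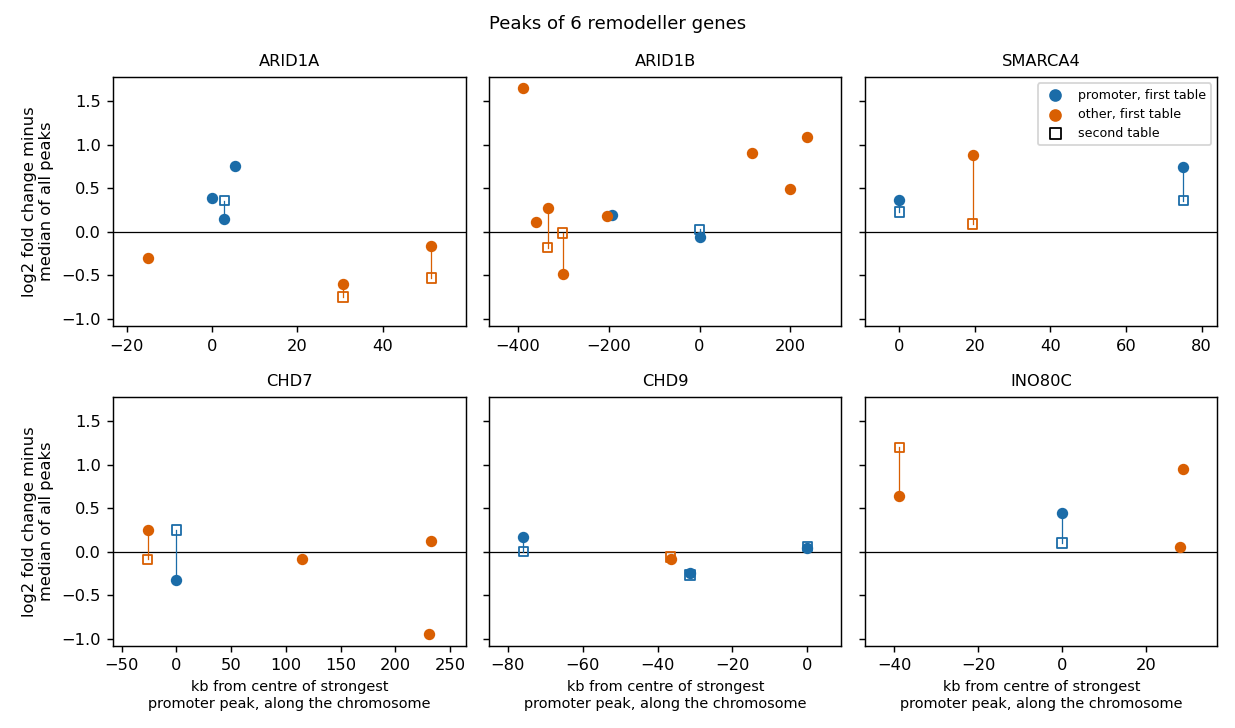
Relative change of each peak (y axis, log2) against its distance in kb along the chromosome from the centre of the strongest promoter peak, for 6 remodeller genes with several peaks, with filled circles for the first table, open squares for the second and a line joining a peak's values. At ARID1A the promoter peaks lie above 0 in the first table and the intronic peaks lie below it in both tables. Only the middle ARID1A promoter peak has a second-table value, at 0.36. The 3 SMARCA4 peaks all lie above 0.

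The 2 remaining SMARCA genes were SMARCA5, the ISWI motor, and SMARCAL1. SMARCA5 (chromosome 4, 143513090 to 143513981) was at the median in the first table, at -0.01, and at -0.35 in the second, with 215 knockout and 639 normalised control reads. Relative to its region SMARCA5 was at 0.10 by the first table and at -0.30 by the second, on opposite sides. SMARCAL1, an annealing helicase of stalled replication forks, had -0.29 and -0.32 at its promoter (chromosome 2, 216412124 to 216412919), with 113 and 331 reads. The regional medians around SMARCAL1 were -0.07 and 0.03, so its values were about as large relative to its neighbours, at -0.22 and -0.35.

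The CHD genes showed no shared direction. Of 8 with a promoter peak, 3 were below the median in the first table, and of 7 with a second-table partner 3 were below there, with 1 below in both and 2 above in both. CHD3, a motor of the NuRD repressor complex, was the one below in both, at -0.42 and -0.18. Its paralogue CHD4 had a first-table promoter peak (chromosome 12, 6608133 to 6608608) at 0.81 with no partner. A peak annotated to an exon of another transcript, at -5426 bp from the nearest CHD4 start, had one and lay at 0.11 and 0.37 with 133 knockout and 242 normalised control reads. CHD1, a motor at transcribed genes, stood at 0.27 and -0.06 and was the strongest member promoter of the first table, with 976 normalised reads. CHD2 stood at -0.29 and 0.11, with another promoter peak at -0.18 and no partner. CHD7, mutated in CHARGE syndrome, read -0.32 and 0.25, and CHD6 0.24 and -0.13, so both changed side. CHD8 and CHD9 have several promoters. CHD8 held 0.36 and 0.03 at its strongest promoter peak but -0.73 and -0.12 at another, and the 3 CHD9 promoter peaks ran from -0.24 to 0.17 in the first table and from -0.27 to 0.06 in the second.

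In the INO80 family, the member promoter with the lowest mean of both tables carried the symbol INO80B-WBP1, the read-through transcript of INO80B and WBP1. The whole 300-base RefSeq promoter window of INO80B, a subunit of the INO80 complex, lies in the same peak (chromosome 2, 74454791 to 74455293), so the genes cannot be told apart here. It held 111 knockout and 393 normalised control reads, with relative changes of -0.80 and -0.60 and an interval of -0.91 to -0.29. Other peaks of its 5 Mb were low too, at -0.47 and -0.37, and -0.33 and -0.23 remained once these were subtracted. INO80, the motor, was at 0.02 and 0.21 (338 and 680 reads), and INO80C, another subunit, at 0.45 and 0.10 (175 and 383 reads). The first-table value of INO80C fell to 0.10 relative to its region. INO80D had a first-table promoter peak alone, at -0.05. SS18L2, a small SS18-like gene counted apart from the complexes, stood at 0.07 and 0.13, and at -0.18 and 0.01 at its weaker promoter peak.

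**Figure D3:**
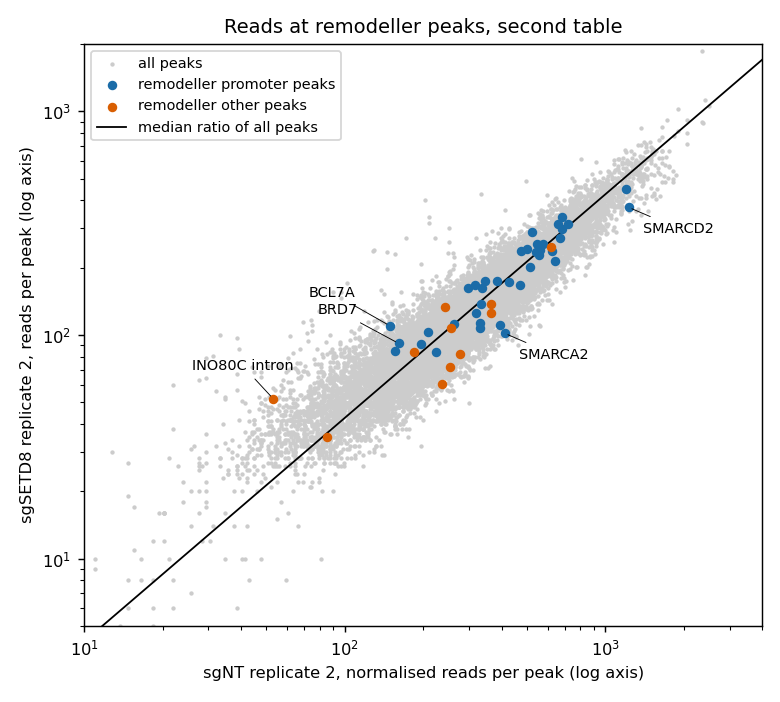
Reads per peak in the second table, sgSETD8 replicate 2 against sgNT replicate 2 on log axes, with all peaks in grey, remodeller promoters in blue, other remodeller peaks in orange and the median ratio of all peaks (0.426) as a line. Most members lie along the line, with BCL7A, BRD7 and the INO80C intronic peak above it and SMARCA2 and SMARCD2 below.

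Counting error alone covers the distance from the median for 17 of the 30 member promoters in the second table. Of the rest, 7 had an interval wholly below the median (23.3%, against 19.4% of all genes) and 6 wholly above (20%, against 14%). Intervals narrow with more reads, and the member promoters held more, with a median of 221.5 knockout reads against 164 over all genes. The shares were not compared at like depth. The 7 were INO80B-WBP1, SMARCA2, SMARCD2, SMARCD1, ACTL6A, SMARCAL1 and SMARCA5, and the 6 were BCL7A, BRD7, BRD9, SMARCB1, SMARCA4 and INO80. The SMARCA4 interval began so close to 0 that the rounding of the deposited levels could move it across, so its place among the 6 is not firm.

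Away from promoters the 32 member peaks comprised 17 distal intergenic, 12 intronic and 3 exonic ones. Their median relative change was 0.12 in the first table, where all 8769 non-promoter peaks had 0.11. Below the all-peak median of the first table lay 13, or 40.6%, against 42.6% of non-promoter peaks, and 10 (31.3%) were lower by at least 1 as deposited, against 34.8%. The 11 with a second-table partner had a median of -0.09 there, against -0.06, and 8 of them (72.7%) lay below 0, where 55.9% of joined non-promoter peaks did. ARID1B had 8 of the 32, the most of any member, spread from -388 kb to 237 kb along the chromosome around its strongest promoter peak. These had relative changes from -0.48 to 1.65 in the first table. The 2 strongest, at 156686527 to 156687742 and 156719772 to 156720382, were at 0.27 and -0.48 there and at -0.18 and -0.01 in the second table.

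Positive fold changes at members were found at weak peaks. The 6 non-promoter peaks with a deposited fold change above 0 (18.8% of 32, against 13.1% of all non-promoter peaks) all had a mean level of 113 normalised reads or less. That level is the one of the strongest of these 6, an intronic SMARCA4 peak, so all 6 lie at or under it by construction. Up to it there were 18 non-promoter members, and 19.0% of all non-promoter peaks up to it were above 0. Because the members set the cut, their share under it cannot be compared with this one. The highest was an intronic ARID2 peak (chromosome 12, 45746078 to 45746396) at 2.09, with 25.8 normalised reads, followed by 2 distal peaks of ARID1B at 1.65 and 1.09 with 44.3 and 45.6. None of these 3 had a second-table partner. At the low end, a distal CHD7 peak (chromosome 8, 60908831 to 60909612) was at -0.95 and a distal INO80D peak at -0.89, which was the member with the unadjusted p of 0.0295 in the authors' first deposited table. These 2 also had no partner. The remaining distal and intronic peaks, all without a partner, stood in the first table at 0.34 (CHD2), 0.02 (CHD6), -0.08 and 0.12 (CHD7), -0.17 (DPF3), 0.95 and 0.05 (INO80C), 0.66 (INO80D), -0.20 (SMARCA2) and -0.19 (SS18). Of the 23 non-promoter members under the median level of the first table, only 2 had a partner, and of the 9 at or above it all 9 did.

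**Figure D4:**
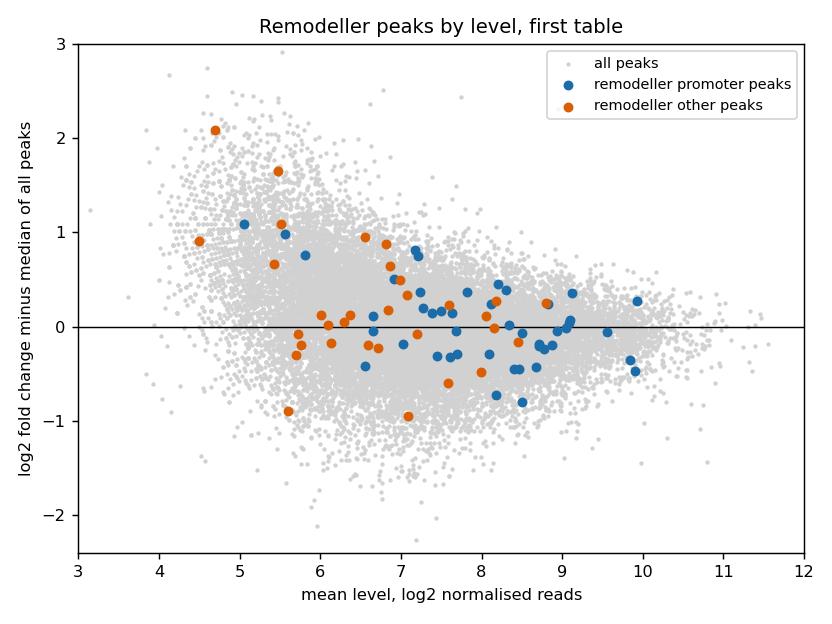
Relative change (y axis) against mean level in log2 normalised reads (x axis) in the first table, with all peaks in grey, remodeller promoter peaks in blue and other remodeller peaks in orange. The spread widens and the centre rises toward weak peaks, and the member peaks highest on the y axis, at 2.09 and 1.65, lie among these.

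The non-promoter member farthest above the median of the second table was an intronic peak nearest INO80C (chromosome 18, 35458812 to 35459333). It held 52.0 knockout and 53.1 normalised control reads, a relative change of 1.20 (interval 0.63 to 1.76), and 0.64 in the first table. With the trend by level removed, these became 0.69 (second table) and 0.66 (first table). The limma fit on both tables gave it an unadjusted p of 0.00177 and an adjusted p of 0.316. Its region stood at 0.36 in the first table and at 0.10 in the second. A distal peak nearest BCL7C, a BAF subunit gene without a promoter peak among the members, split with 0.23 and -0.59 from 72.0 and 254 reads. A distal peak at -6610 bp from the SMARCC1 start read -0.01 and -0.31. The strongest non-promoter member, annotated to an exon and nearest CHD7, had 247 and 617 reads with 0.25 and -0.09, and the intronic CHD9 peak -0.08 and -0.06. That CHD9 peak was weak in the second table, with 35.0 and 85.6 reads, and with the trend by level removed it was at -0.57 there.

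Partner genes outside the naming rule were read the same way, from a list of 48 that covers further BAF subunits, ISWI and NuRD partners and the INO80, SRCAP and EP400 complexes. A promoter peak was present for 38, with a median relative change of 0.10 in the first table, and 31 had a second-table partner, with a median of -0.02. In the authors' deposited tables, none (0) of these promoters passed an adjusted p of 0.05 and 0 had an unadjusted p under 0.05. Of the 31, 6 were below the median in both tables and 9 above in both, where 33.7% and 21% of all genes were. VPS72, which loads H2A.Z in the SRCAP and EP400 complexes, had the lowest mean of both tables, at -0.73 and -0.49, with 91.1 knockout and 300.2 normalised control reads. RSF1, a partner of SMARCA5, followed with -0.79 and 0.15. EP400, a motor that exchanges H2A.Z, had the highest mean of both tables, at 0.39 and 0.30. TRRAP, the scaffold shared with histone acetyltransferases, was at 0.26 and 0.35, level on average with CHRAC1, an ISWI partner, at 0.08 and 0.53. Peaks around CHRAC1 were themselves high, at 0.35 and 0.38.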

How the data were processed

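ATAC-seq peaks of 4 Kasumi-1 libraries, grouped by sample title, were read from 2 deposited tables. Per the submitters' processing notes, the build was hg38 and the tools were MACS2 2.1.2, Bowtie2, cutadapt, ChIPseeker, SAMtools and deepTools. Not given in the sources used here are their order and settings, duplicate removal, the transposase shift and library scaling. Both tables hold, as the authors deposited them, log2 mean levels, log2 fold changes, p-values and adjusted p-values for each peak. Log2 levels of both replicate 2 libraries are added in the second, per the file headers. The first table has numbered columns, identified by order and range. In it, 2 columns that look like per-group levels but name no library were not used. Its direction was read from the table's name, treated against control.

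Weak second-table levels were whole reads in the knockout library (100% of 361 values within 0.005 log2) and reads times 0.918 in the control (100% of 170). Larger reads are rounded by the 2 decimals of the deposited levels. Tables were scaled separately, so changes were centred within each. Second-table peaks were joined to the first-table peak of largest overlap (at least 1 bp). Regional medians used the other peaks of a 5 Mb bin with at least 10 peaks, and level trends 20 bins.

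The members and lists were chosen with earlier results of these data known. Named genes were the 6 lowest and 6 highest promoters by the mean of both changes, SMARCA4 and SMARCA2, joined non-promoter peaks, the 5 strongest, 3 lowest and 3 highest non-promoter peaks, and the 2 lowest and 2 highest partner genes. All other members are accounted for by a value or a range. No read counts for all 4 libraries were used, so the authors' test stands, with limma 3.58.1 (R 4.3.3) as an alternative. The limma fit was tried on simulated data with independent noise and planted effects larger than any member's mean change. Whether it can call changes of the sizes seen here was not tested. Whether numbers pair libraries could not be checked, as only replicate 2 has named levels. Motifs were searched as exact letters, and the YY1 motif was shortened to its core after a longer form had been searched. Python 3.11.15, numpy 2.4.6, pandas 2.3.3, scipy 1.17.1 and matplotlib 3.10.9 were used.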

Additional observations from a re-analysis of the deposited data

How the results depend on the processing

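Of 51 alternatives, 39 gave counts within 1.5 times of those reported or medians within a set spread, or kept the same side of the threshold. Some of the 39 could not have come out otherwise, so their number does not measure stability. The strongest promoter peak of every member lay within 1 kb of a start site, so that setting repeated the main values. An adjusted p threshold of 0.1 could add no peak where the smallest of the authors' adjusted p-values was 0.578. For promoter medians that spread was 0.0495, the standard deviation of the 2 tables' medians. For the non-promoter median it was 0.0789. This is the median standard deviation of a joined peak's 2 values, divided by the square root of the number of such peaks. The member promoter median of the first table was 0.02 when centred on promoter peaks and 0.065 with the level trend removed. The non-promoter median was 0.005 when centred on non-promoter peaks and -0.01 for the 9 peaks at or above the median level. For BAF, PBAF and non-canonical BAF subunits alone, 11 of 19 promoters lay below the median in the first table and 7 of 17 in the second, fewer because fewer genes entered. Promoters lower by at least 1 as deposited became 29 in the first table at a fold size of 0.5, 1 there and 6 in the second table at 1.5, and 0 in both after centring. Shares over all genes were not taken at these settings, so the counts show nothing particular to the members. As deposited, the member promoters had quartiles of -1.16 and -0.61 in the first table, against -1.19 and -0.68 over all genes. In the second table these were -1.41 and -1.05, against -1.44 and -1.08. The replicate block, limma on both tables, called 46 of 49 member peaks without centring, where 96.7% of all joined peaks were called, and 0 with it. This fit takes the tables as independent pairs, which could not be checked. Without replicate 1, the second table alone had 13 promoters below its median, a count that cannot be under the 10 below in both tables. Leaving out replicate 2 was not run, because the first table names no libraries. Depth limits the second table, where 17 of 30 member promoters lay within counting error of the median, and the depth of single libraries in the first was not analysed here.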
